A study of Mus musculus with 272 samples.

Results

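The genes described are 10 members of the SR family of splicing factors, *Srsf1*, *Srsf2*, *Srsf3*, *Srsf4*, *Srsf5*, *Srsf6*, *Srsf7*, *Srsf9*, *Srsf10* and *Srsf11*, of 21938 protein-coding genes in GENCODE M21 on mm10. They were taken by gene name, and the family was chosen by the H3K27ac fold enrichment of *Srsf6*, whose promoter is among the strongest in muscle stem cells (MuSCs). *Srsf12* is not among them and is described with the other splicing genes, so the family below means these 10 genes. By the lower of the 2 replicates, the H3K27ac fold enrichment of *Srsf6* (51.9) stood at rank 3 of all protein-coding genes, after *Epc1* (59) and *Elk4* (52.2) and just before *Rbm39* (51.1). For each of these genes the lower value was that of replicate 2, so rank 3 in replicate 2 alone adds no separate agreement. In replicate 1 alone *Srsf6* was at rank 36. That value chose the members, so it is given as a description, and no test was run on any value below.

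The data were 8 peak lists, 2 replicates each of ATAC-seq, which marks accessible DNA, and of ChIP-seq for the histone modifications H3K4me3, H3K27ac and H3K27me3. The cells of all 8 were MuSCs, labelled only as skeletal muscle cells and sorted as GFP-positive from hindlimb muscle of Pax7Cas9 mice, in which Cre driven from *Pax7* switches on a Rosa26 Cas9-EGFP allele. The age of these mice is not given in the sources used here, no treatment is named for them, and there was no second condition, so nothing was compared between conditions. Nothing says whether the replicates came from separate mice, so the spread between them may be technical. The values are the authors' fold enrichment at each peak summit over the local background. The series lists a single input library for H3K4me3 and H3K27me3 and another for H3K27ac, so the replicates of a mark may share a control. Folds are compared within a list, and a lower fold in such pooled cells cannot tell fewer cells with a mark from less of it per cell.

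SR proteins hold RNA recognition motifs and a tail rich in arginine and serine. They bind exonic enhancers in pre-mRNA and help the spliceosome to recognise the neighbouring splice sites, and the SRPK and CLK kinases phosphorylate the tail. Many SR proteins limit their own level by splicing in a poison exon, which sends the transcript to nonsense-mediated decay (NMD). H3K4me3 and H3K27ac mark active promoters, and H3K27me3 is the mark of Polycomb repression.

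The promoter sequences of 5 genes are shown because their chromatin marks the ends of the range described below. *Srsf6* had the highest H3K27ac, *Srsf5* the highest H3K4me3 in replicate 1, *Srsf2* the widest H3K4me3 peak, *Srsf9* the lowest histone marks, and *Srsf11* peaks at 2 separate start sites. Each RefSeq sequence (GRCm38.p6) holds 250 bases before and 50 bases after a start site and reads 5′ to 3′ in the direction of the gene. Capitals mark exact matches on either strand to 5 motifs. The core bound by ETS factors was searched as CCGGAA. The GC box known from housekeeping promoters was searched as GGGCGG. The motif of the NFY complex was searched as CCAAT, the TATA box known from sharply defined start sites as TATAAA, and the NRF1 motif as GCATGCGC. Adjoining capitals can hold overlapping matches.
*Srsf6*, chr2:162931258-162931557, plus strand: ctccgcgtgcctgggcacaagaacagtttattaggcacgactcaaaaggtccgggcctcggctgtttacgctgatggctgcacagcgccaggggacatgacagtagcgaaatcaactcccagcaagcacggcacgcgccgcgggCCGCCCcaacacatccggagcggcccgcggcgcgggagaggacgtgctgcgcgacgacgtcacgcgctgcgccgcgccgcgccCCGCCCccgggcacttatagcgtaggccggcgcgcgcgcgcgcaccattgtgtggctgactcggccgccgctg
*Srsf5*, chr12:80945249-80945548, plus strand: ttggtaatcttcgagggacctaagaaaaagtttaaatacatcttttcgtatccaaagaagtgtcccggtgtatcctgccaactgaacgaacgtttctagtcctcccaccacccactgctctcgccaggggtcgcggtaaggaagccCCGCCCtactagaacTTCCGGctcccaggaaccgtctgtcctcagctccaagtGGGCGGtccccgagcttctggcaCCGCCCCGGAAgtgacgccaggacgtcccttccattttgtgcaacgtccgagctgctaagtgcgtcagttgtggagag
*Srsf2*, chr11:116853045-116853344, minus strand: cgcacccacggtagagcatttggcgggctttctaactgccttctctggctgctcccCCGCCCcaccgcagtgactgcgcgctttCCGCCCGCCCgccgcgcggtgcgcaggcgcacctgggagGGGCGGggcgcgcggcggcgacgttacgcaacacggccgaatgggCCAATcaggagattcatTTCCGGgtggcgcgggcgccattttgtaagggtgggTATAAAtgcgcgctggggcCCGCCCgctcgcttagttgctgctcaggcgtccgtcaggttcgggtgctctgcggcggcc
*Srsf9*, chr5:115326927-115327226, plus strand: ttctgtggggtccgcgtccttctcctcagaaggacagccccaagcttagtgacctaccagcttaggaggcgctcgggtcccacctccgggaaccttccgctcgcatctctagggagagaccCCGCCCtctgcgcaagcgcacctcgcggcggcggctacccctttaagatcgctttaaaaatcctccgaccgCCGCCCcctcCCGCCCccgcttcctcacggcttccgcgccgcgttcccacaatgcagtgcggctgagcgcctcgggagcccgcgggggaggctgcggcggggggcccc
*Srsf11*, the outer start site, chr3:158036557-158036856, minus strand: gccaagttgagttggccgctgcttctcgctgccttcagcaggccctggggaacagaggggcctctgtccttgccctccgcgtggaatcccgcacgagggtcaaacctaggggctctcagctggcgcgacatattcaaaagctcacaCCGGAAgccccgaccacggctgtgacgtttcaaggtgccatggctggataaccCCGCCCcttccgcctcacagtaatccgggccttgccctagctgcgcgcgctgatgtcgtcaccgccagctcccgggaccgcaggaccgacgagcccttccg
*Srsf11*, the inner start site, chr3:158031699-158031998, minus strand: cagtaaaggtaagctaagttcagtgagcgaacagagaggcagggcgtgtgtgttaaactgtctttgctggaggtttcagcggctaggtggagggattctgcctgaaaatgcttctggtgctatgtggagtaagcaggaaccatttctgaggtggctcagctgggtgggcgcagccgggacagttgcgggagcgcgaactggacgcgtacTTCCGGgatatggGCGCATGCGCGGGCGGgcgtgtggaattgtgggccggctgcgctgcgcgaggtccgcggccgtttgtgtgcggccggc

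The 10 promoters were rich in CpG. At the first RefSeq start site of each gene, GC content ran from 56% in *Srsf5* to 77.7% in *Srsf4* with a median of 68.7%, against 57% over 20150 promoters of protein-coding genes. The observed-to-expected CpG ratio had a median of 1.01 (0.8 to 1.23), against 0.588. A GC box was found in 9 of the 10, all but *Srsf3*, and in 47.8% of the 20150. An ETS match was found in 6, in *Srsf1*, *Srsf2*, *Srsf4*, *Srsf5*, *Srsf7* and *Srsf11*, and in 19.2% of all promoters. CCAAT stood in 4 (37.8% of all), TATAAA in *Srsf2* and *Srsf3* (12.1%), and GCATGCGC in *Srsf7* (3.65%). No member held CACGTG (E-box, 8.03% of all), TGACGTCA (CRE, 2.31%) or AAGATGGCG (YY1, 1.93%). These are letter matches in a 300-base window and say nothing about whether a factor binds there.

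All 10 SR genes carried ATAC-seq, H3K4me3 and H3K27ac peaks within 3 kb of an annotated start site in both replicates, and none carried H3K27me3 in either. *Srsf12*, which is not among the 10, had no H3K27ac peak there in either replicate. Over all protein-coding genes the shares with a peak in both replicates were 67.8% for ATAC-seq, 60.8% for H3K4me3, 46.6% for H3K27ac and 4.81% for H3K27me3. With H3K27me3 so rare, its lack does not set the members apart. The 3 active features without H3K27me3 were found at 44.4% of genes. The histone peaks of the members were high for the lists, while their ATAC-seq peaks were not. Above the 90th percentile of both lists, taken over genes with a promoter peak, lay 8 of 10 members for H3K27ac, the mark behind the choice of family. Of all protein-coding genes, with or without a peak, 3.67% did. For H3K4me3 it was 5 of 10 (4.19% of genes), and for ATAC-seq 0 of 10 (4.2%). For H3K27ac, *Srsf11* passed only by its inner start site (36.7 and 26.9), not by the outer one (27.3 and 20.1).

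The median H3K27ac fold of the members was 35 in replicate 1 and 29.6 in replicate 2, against 13.9 and 12 over all genes with a peak. The median H3K4me3 fold was 44.4 and 31.5, against 23.9 and 17.6. The median ATAC-seq fold was 13.8 and 12.8, close to the 13.3 and 12.2 of all genes. The peaks were also wide, and here ATAC-seq was no exception. The strongest ATAC-seq peak had a median width of 938.5 and 728 bp in the members and 423.5 and 521 bp over all genes with a peak. It was wider than that median over genes in 10 of 10 members in each replicate. Some passed it narrowly, *Srsf11* (458 bp) in replicate 1, and *Srsf3* (551 bp) and *Srsf5* (554 bp) in replicate 2. H3K4me3 peaks spanned a median of 3032 and 2563 bp (1615 and 1338 bp over all genes) and H3K27ac peaks 2268 and 1794 bp (1159 and 985.5 bp).

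**Figure D1:**
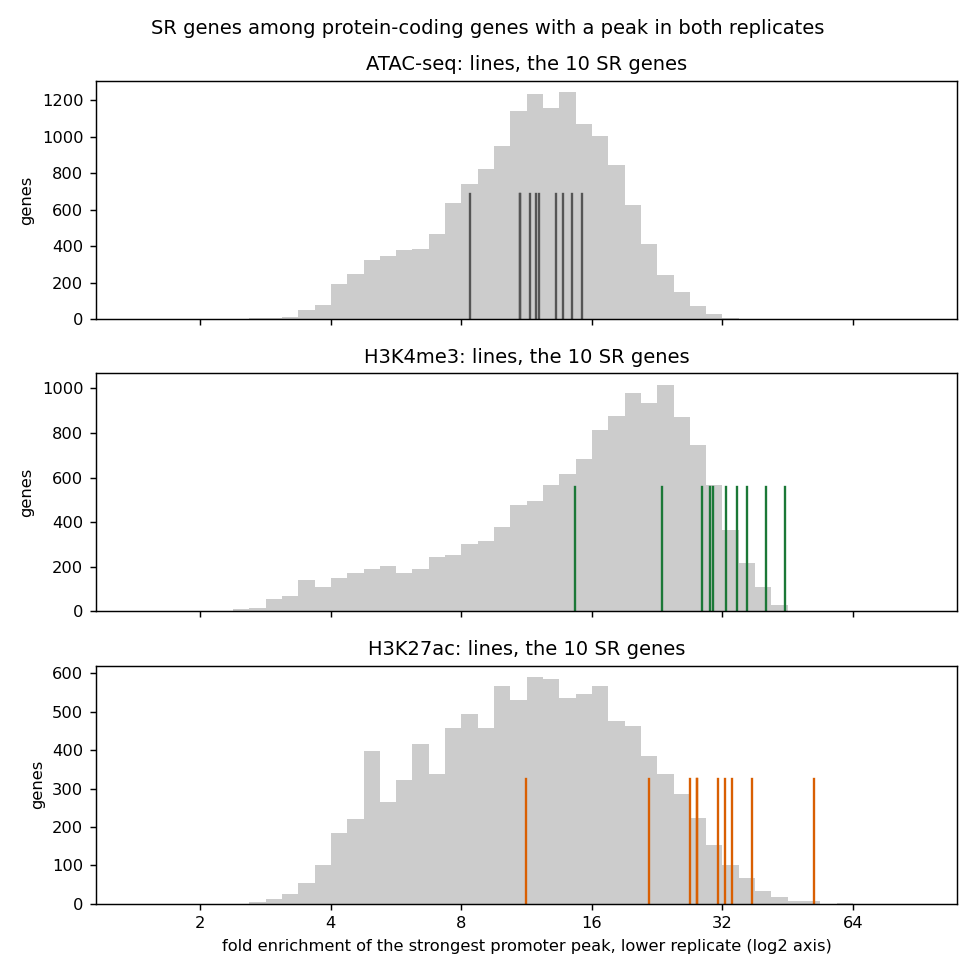
Histograms of the fold enrichment of the strongest promoter peak, taken as the lower of the 2 replicates on a log2 axis, for protein-coding genes with a peak in both replicates, with a vertical line for each of the 10 SR genes. The SR genes lie inside the bulk of the ATAC-seq values. Most lie towards the upper end for H3K4me3 and H3K27ac, but *Srsf9* does not for either mark, nor *Srsf11* (23.2) for H3K4me3.

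By H3K27ac, *Srsf6* (SRp55), at chr2:162931528-162937121, stood first, with a fold of 52.1 in replicate 1 and 51.9 in replicate 2. The replicates were almost equal, at 52 ± 0.186 (SD, n = 2). *Srsf5* (SRp40), at chr12:80945504-80950507, had 62.9 and 37.5 (50.2 ± 17.9, SD, n = 2), so that it was above *Srsf6* in replicate 1 and below it in replicate 2. *Srsf2* (SC35), whose protein is found in nuclear speckles, lies at chr11:116849901-116853094 and had 43.5 and 33.7. *Srsf4* (SRp75), which has the longest arginine-serine tail of the family, had 39.1 and 32.4 at chr4:131873617-131901706.

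The next 4 genes were close to each other. *Srsf3*, the smallest SR protein, which also links splicing to mRNA export, had 33.3 and 31.3 at chr17:29032628-29043373. *Srsf11* (chr3:158010473-158036639) had 36.7 and 26.9. *Srsf1* (SF2/ASF), the founding member, had 32.8 and 28 at chr11:88047373-88053755. *Srsf7* (9G8), the SR protein with a zinc knuckle, had 31.1 and 28 at chr17:80200080-80207307. The replicate ranges of these 4 overlap for every pair but *Srsf3* and *Srsf7*, so no order is read among them beyond that pair.

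*Srsf10* and *Srsf9* were at the lower end. *Srsf10* (SRp38), which represses splicing when it is dephosphorylated, had 30.7 and 21.7 at chr4:135855747-135869908. *Srsf9* (SRp30c), at chr5:115327177-115333080, had 15.3 and 11.3, near the median of all genes with a peak and below the other 9 in each replicate. In the order of the 10 genes by mean fold, 8 of 9 neighbouring pairs had overlapping replicate ranges, and the gap that did not close was that between *Srsf10* and *Srsf9*. Replicate 1 was higher than replicate 2 in every member, as was its median over all genes with a peak. Overlap of the ranges therefore partly reflects this offset between the lists. Within each list, *Srsf2* held place 3, *Srsf4* place 4, *Srsf10* place 9 and *Srsf9* place 10.

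**Figure D2:**
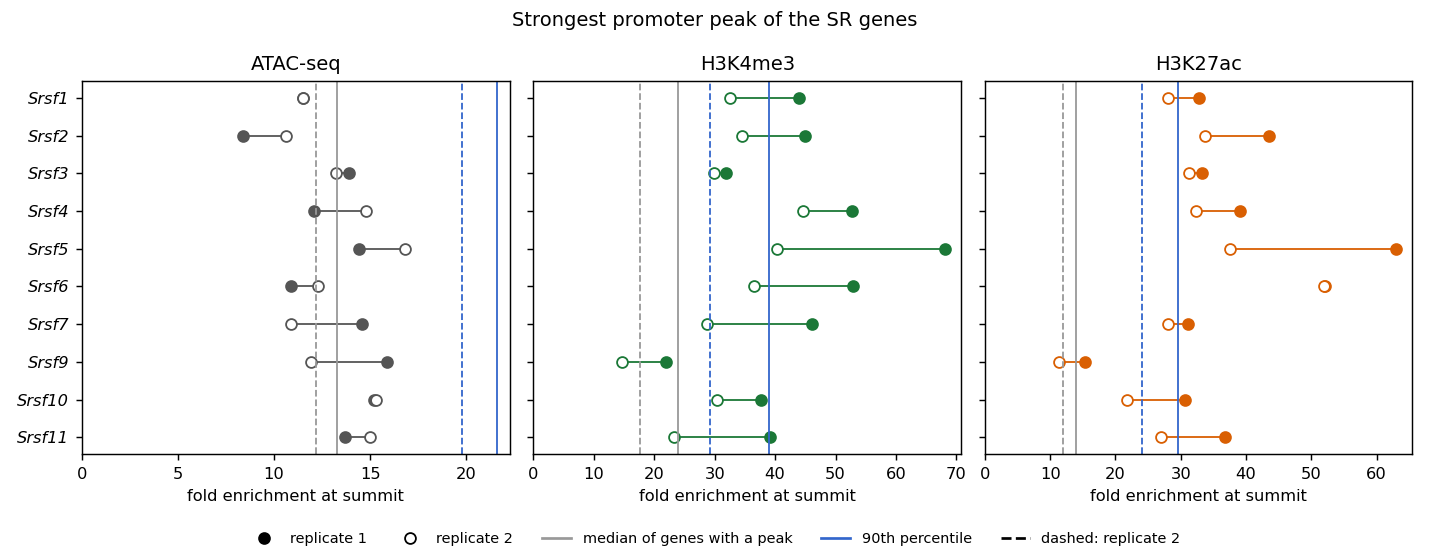
Fold enrichment at the summit of the strongest promoter peak of each SR gene (filled, replicate 1, and open, replicate 2), with the median (grey) and 90th percentile (blue) of protein-coding genes with a peak, solid for replicate 1 and dashed for replicate 2. For ATAC-seq no gene reaches the 90th percentile, while *Srsf6*, at 52.1 and 51.9 for H3K27ac, and *Srsf5*, at 68.1 and 40.3 for H3K4me3, lie far above it.

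By H3K4me3 the leading genes were *Srsf5* and *Srsf4*. *Srsf5* had a fold of 68.1 in replicate 1, which was rank 1 of all peaks in that list, and 40.3 in replicate 2, where it was at rank 54 (54.2 ± 19.7, SD, n = 2). *Srsf4* had 52.7 and 44.6 (48.7 ± 5.71, SD, n = 2), and by the lower replicate it stood at rank 5 of protein-coding genes, the best of the family. By single replicates its rank among these genes was 79 in replicate 1, behind *Srsf5* and *Srsf6*, and 6 in replicate 2. *Srsf6* followed with 52.9 and 36.5. The lead of *Srsf5* thus rested on replicate 1, and the ranges of these 3 genes overlap.

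*Srsf2* had 44.9 and 34.6 for H3K4me3, *Srsf1* 43.9 and 32.6, and *Srsf7* 46.1 and 28.7. *Srsf10* had 37.6 and 30.4, *Srsf11* 39.2 and 23.2, and *Srsf3* 31.9 and 29.9. *Srsf9* was again last, with 22 and 14.6, below the medians of 23.9 and 17.6 over all genes with a peak. From *Srsf5* down to *Srsf3* every neighbouring pair had overlapping ranges (8 of 9 pairs in all), and only the step from *Srsf3* to *Srsf9* was free of overlap. Here too replicate 1 was higher in every member, so the overlap partly reflects that offset. Within each list, *Srsf5*, *Srsf4* and *Srsf6* had the 3 highest folds and *Srsf9* the lowest. Over the 10 genes, H3K4me3 and H3K27ac had a Spearman rho of 0.782 in each replicate (0.569 and 0.561 over 10127 genes with the 3 active features), values of the same promoters that share base composition and mappability.

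*Srsf2* stood out by width. Its H3K4me3 peak spanned 5153 bp in replicate 1 and 3880 bp in replicate 2, and covered 100% and 77% of the gene, the shortest of the family (3.19 kb). In *Srsf3* the H3K4me3 peak spanned 4746 and 3673 bp, and in *Srsf1* 3604 and 3004 bp. With a second, smaller peak in each replicate, H3K4me3 covered 48% and 39.2% of *Srsf1*. In the long genes *Srsf4* (28.1 kb) and *Srsf11* (26.2 kb) H3K4me3 peaks covered 7.94% and 6.81%, and 13.3% and 10.7%. The strongest H3K4me3 peak of *Srsf9* was 2309 and 1897 bp wide, so it was low but not narrow. In each of the 10 members the strongest H3K4me3 peak was wider than the median over all genes with a peak.

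The peaks reached different distances to either side of the start sites. H3K4me3 of *Srsf6* reached 1013 and 991 bp upstream of the first RefSeq start site and 2136 and 1696 bp downstream, and its H3K27ac 982 and 857 bp upstream and 1037 and 964 bp downstream. At *Srsf7*, H3K27ac began only 43 and 42 bp upstream and ran 1433 and 1263 bp into the gene, although H3K4me3 there reached 760 and 574 bp upstream. *Srsf2* was the reverse, with H3K27ac running 1602 and 1409 bp upstream and 1238 and 1098 bp downstream.

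**Figure D3:**
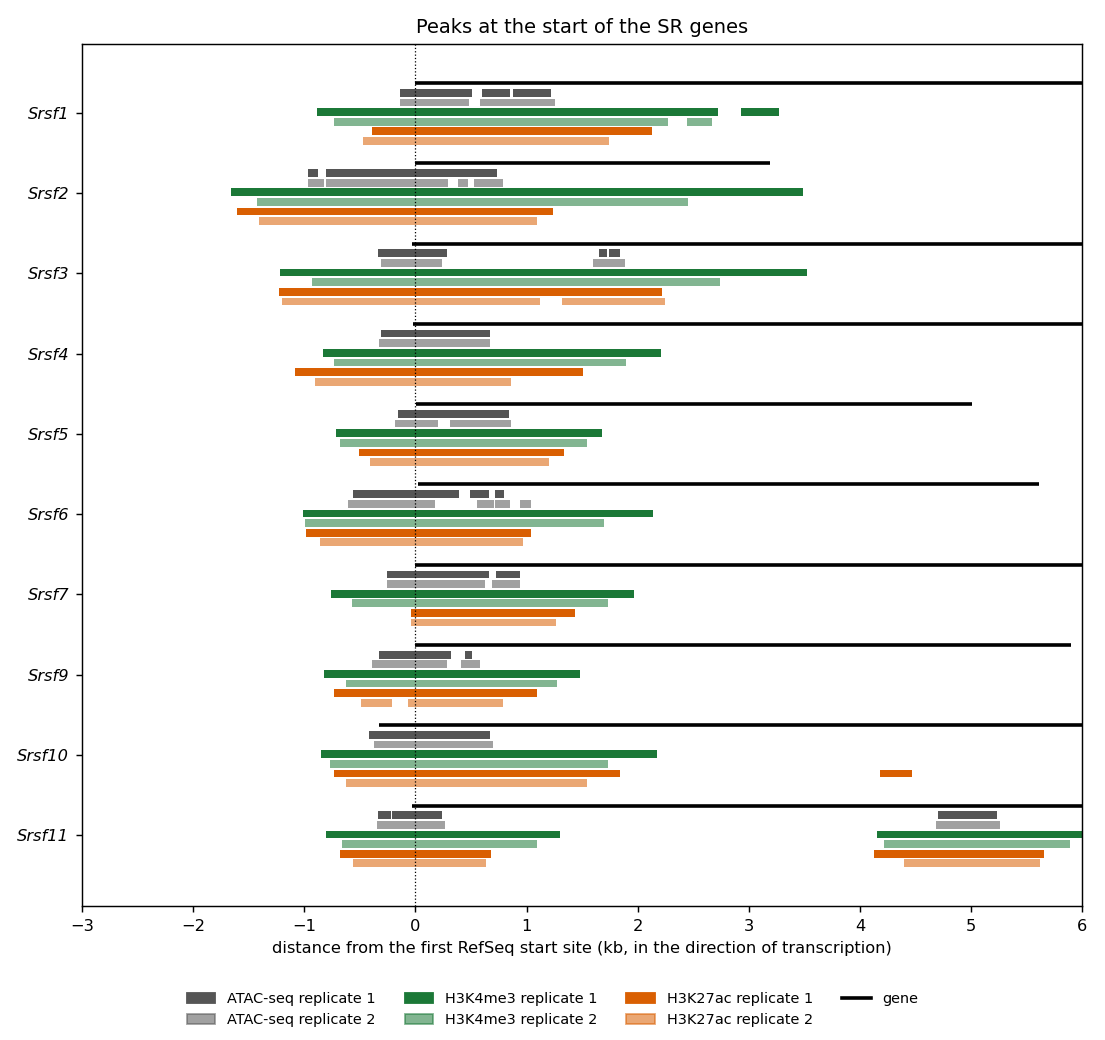
Extent of the ATAC-seq, H3K4me3 and H3K27ac peaks of each SR gene around its first RefSeq start site, in kb along the direction of transcription, with replicate 1 in full colour, replicate 2 in pale colour and the gene as a black line. H3K4me3 of *Srsf2* spans 5153 bp in replicate 1 and runs past the end of the gene, *Srsf11* has a second block of peaks at the inner start site, 4858 bp into the gene, and H3K27ac of *Srsf7* starts almost at the start site.

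Accessibility ordered the genes differently. *Srsf5* had ATAC-seq folds of 14.4 and 16.8, *Srsf10* 15.2 and 15.3, and *Srsf11* 13.7 and 15. *Srsf2* had the lowest, 8.38 and 10.6, but its peak in replicate 1 was 1542 bp wide, rank 9 of 15886 genes by width, and 1101 bp wide in replicate 2. A wide and low ATAC-seq peak thus went with the widest H3K4me3 peak of the family. By mean ATAC-seq fold, 7 of 9 neighbouring pairs overlapped, and the steps from *Srsf10* to *Srsf11* and from *Srsf1* to *Srsf2* did not. The latter step rests on a peak inside *Srsf1* in replicate 2. At its start site *Srsf1* had 11.5 and 9.77, a range that overlaps that of *Srsf2*.

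*Srsf9* had 15.9 and 11.9 for ATAC-seq, so the gene with the lowest histone folds was not the least accessible. *Srsf3* had 13.9 and 13.2, *Srsf4* 12.1 and 14.8, and *Srsf7* 14.6 and 10.9. *Srsf6* had 10.9 and 12.3, and *Srsf1* 11.5 and 11.5, where the strongest peak lay at the start site in replicate 1 (it began 136 bp upstream) and wholly inside the gene in replicate 2 (chr11:88047957-88048630). The replicates ranked the 10 genes less alike for ATAC-seq (Spearman rho 0.345) than for H3K4me3 (0.782) or H3K27ac (0.903). ATAC-seq and H3K27ac folds had a rho of -0.661 over the 10 genes in replicate 1 and -0.0182 in replicate 2, so no relation is read from them.

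No H3K27me3 peak of either replicate lay in any member or within 10 kb of it, where 6.91% of protein-coding genes had such a peak in both replicates. With a share this low, the lack of peaks does not set the members apart from most genes. The nearest H3K27me3 peaks were those by *Srsf4*, 13.7 and 13.6 kb from the gene in replicates 1 and 2. For the other 9 genes the distance ran from 65.4 kb (*Srsf2*, replicate 2) to 889.7 kb (*Srsf3*, replicate 1). The H3K27me3 lists hold weak peaks, with a median fold at marked promoters of 4.13 and 4.11, and the absence of a listed peak is no measurement that the mark is absent.

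A start site of another gene, on the opposite strand, lay within 1 kb of a start site in 6 of the 10, and a peak there cannot be assigned to either gene. The share was 22.7% of all protein-coding genes and 36.4% of the 9730 in the active state. The start sites were 13 bp apart for *Srsf1* and the lincRNA *2010015M23Rik*, 60 bp for *Srsf3* and *Gm16196*, and 108 bp for *Srsf5* and *Gm20337*. They were 201 bp apart for *Srsf2* and *Mfsd11*, 153 bp for *Srsf7* and *Ttc39d*, and 23 bp for *Srsf11* and *Lrrc40*, all 3 of these partners protein-coding. *Gm11508*, antisense to *Srsf1* (203 bp), and *Gm43362*, on the same strand as *Srsf11* (142 bp), lay there too. *Srsf4*, *Srsf6*, *Srsf9* and *Srsf10* had no such neighbour, so the group without one holds the strongest (*Srsf6*) and the weakest (*Srsf9*) H3K27ac promoter of the family.

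*Srsf11* had peaks at 2 RefSeq start sites that lie 4858 bp apart, both printed above. At the outer one, shared with *Lrrc40*, H3K27ac was 27.3 and 20.1 and H3K4me3 24.9 and 17.5 in replicates 1 and 2. At the inner one, H3K27ac was 36.7 and 26.9 and H3K4me3 39.2 and 23.2. Both marks were higher at the inner start site in each replicate, although the ranges of the 2 sites over replicates overlap for H3K27ac and for H3K4me3. ATAC-seq was in the opposite order, 13.7 and 15 at the outer site and 10.7 and 10.9 at the inner, without overlap. The inner window holds GCATGCGC at 2 overlapping places, and the outer window none.

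Around the 10 genes and within 10 kb of them, replicates 1 and 2 listed 41 and 40 ATAC-seq peaks, 18 and 18 H3K4me3 peaks and 18 and 18 H3K27ac peaks. Most lay within 3 kb of a start site of the member (23 and 24, 12 and 12, and 12 and 14) or of another gene (13 and 12, 5 and 5, and 5 and 4). Only 5 and 4 ATAC-seq, 1 and 1 H3K4me3 and 1 and 0 H3K27ac peaks lay farther from every start site. None of these was inside a member, but windows around every annotated start reach deep into the genes, so internal peaks can count as near a start. In *Srsf4*, replicate 2 peaks with summits 8207 bp (H3K27ac) and 8579 bp (ATAC-seq) inside the first RefSeq start site were counted so. *Srsf3* had 11 and 7 ATAC-seq peaks and *Srsf6* 7 and 8, the highest counts of the family, and *Srsf7* had 2 and 2, both at its promoter. At *Srsf6* the peak outside promoters was weak, with folds of 4.04 and 6.07 at 9184 and 9182 bp from the nearest start site.

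The strongest peak outside promoters lay upstream of *Srsf9*, whose nearest annotated start site was that of *Srsf9* itself, 7416 and 7396 bp away. Its ATAC-seq folds were 22.7 and 21.1 at chr5:115319504-115319951 and chr5:115319493-115319969, above those of the *Srsf9* promoter (15.9 and 11.9) and above the 90th percentile of promoter peaks (21.6 and 19.8). It also carried H3K4me3, with folds of 8.77 and 5.37, below the 22 and 14.6 of the promoter. The H3K4me3 peak of replicate 1 overlapped the annotated gene *Gm13830*, and that of replicate 2 overlapped no gene. H3K27ac was listed there in replicate 1 only, with a fold of 5.75. The gene with the lowest histone folds at its promoter thus had the most accessible element outside promoters, and which gene it serves was not measured.

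Exons of transcripts annotated for NMD that overlapped no exon of a protein-coding transcript were found in 5 of the 10 genes. *Srsf1*, *Srsf2*, *Srsf5* and *Srsf6* have annotated NMD transcripts without such an exon, so this is no count of poison exons. There were 2 such exons in *Srsf3*, 3 in *Srsf4*, 1 each in *Srsf7* and *Srsf9*, and 2 in *Srsf11*. Of these 9 exons, an ATAC-seq peak overlapped 1, the 456-bp exon of *Srsf3* at chr17:29039454-29039909, 6794 bp from the start site. The folds there were 7.74 in replicate 1 and 8.19 in replicate 2, against 13.9 and 13.2 at the *Srsf3* promoter, and no H3K4me3 or H3K27ac peak was listed. The summits lay 41 and 25 bp from the annotated start of a short *Srsf3* transcript, so the peaks count among those near a start site. The exon of *Srsf9* lay under the end of its promoter H3K4me3 peak, and the other 7 held no peak.

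**Figure D4:**
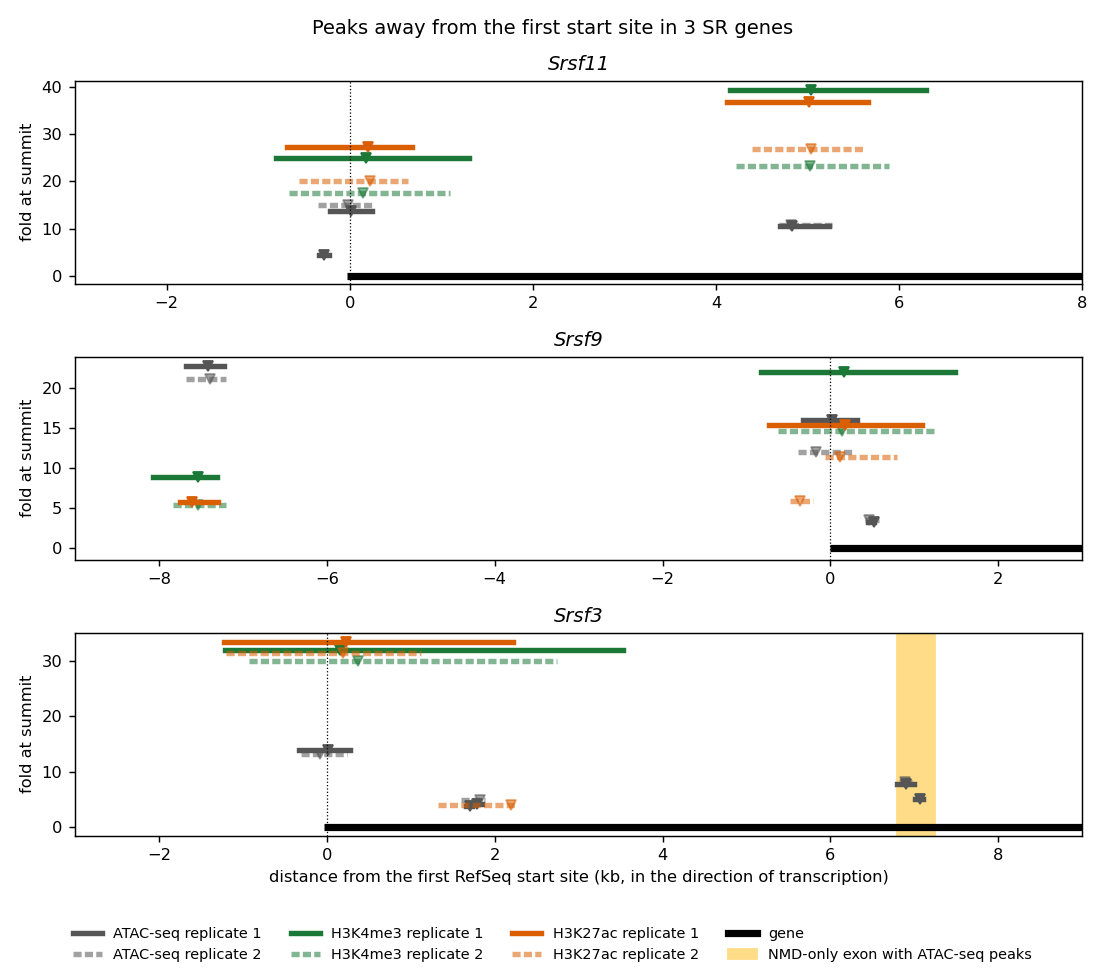
Peaks of *Srsf11*, *Srsf9* and *Srsf3* as lines from start to end at the height of their fold enrichment, with a triangle at the summit, solid for replicate 1 and broken for replicate 2, against the distance in kb from the first RefSeq start site. *Srsf11* shows a second set of peaks at the inner start site, *Srsf9* an ATAC-seq peak with folds of 22.7 and 21.1 far upstream, and *Srsf3* ATAC-seq peaks in its shaded 456-bp exon.

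Across the 6 lists of active features, the promoter most like that of *Srsf6* was the one of *Sfpq*, which encodes another nuclear splicing factor (Euclidean distance of 0.22 over log2 folds, against a median of 3.23 to all 10127 genes). *Tardbp* (0.38), which encodes the RNA-binding protein TDP-43, *Mcl1* (0.43), *Bach1* (0.53) and *Hspa4* (0.55) followed. Within the family, *Srsf1* and *Srsf7* were the closest to each other (0.41), the nearest member to *Srsf6* was *Srsf2* (0.84), and *Srsf9* was the farthest from the rest, 1.94 from *Srsf10*.

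The other splicing genes compared were 46, from 6 lists. Of these, 45 had a promoter ATAC-seq peak, 44 H3K4me3, 39 H3K27ac and 2 H3K27me3 in both replicates, and 37 had the 3 active features without H3K27me3. The 7 core spliceosome genes, such as *U2af1*, *U2af2* and *Sf3b1*, and the 12 hnRNP and PTB genes, which often oppose SR proteins, were all in that state. Their median H3K27ac folds were 34.4 and 28 for the core spliceosome and 31.6 and 25.2 for the hnRNP and PTB genes, near the 35 and 29.6 of the SR genes. No test of a difference between these lists was run. For H3K4me3 the medians were 32.3 and 23.9, and 39.6 and 29.4, against 44.4 and 31.5.

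Among the 7 SR protein kinases, 6 were in the active state. *Clk1*, a kinase of the SR tail, had the highest H3K27ac of the 46 genes, 57.9 and 44.9, and *Srpk3*, which is known from muscle fibres, had ATAC-seq peaks (9.01 and 8.62) but neither H3K4me3 nor H3K27ac. *Tnpo3*, the nuclear import receptor of SR proteins, had 21.5 and 16.2 for H3K27ac. Of the 6 other SR and SR-like genes, *Srsf12* alone lacked H3K27ac, with H3K4me3 of 12.2 and 10, and *Son* had H3K27ac of 36.1 and 30.7 but an H3K27me3 peak (3.42) in replicate 2.

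Of the 13 tissue splicing regulators, 7 were in the active state, and the 8 that carried H3K27ac had median folds of 19.5 and 15.6. *Esrp1* and *Esrp2*, the epithelial regulators, carried H3K27me3 in both replicates (6.75 and 6.16, and 5.25 and 3.76) beside H3K4me3. *Nova1*, a neuronal regulator, had the lowest H3K27ac of the other splicing genes that carried it (4.6 and 4.05), and H3K27me3 in replicate 2 (3.76). *Nova2* and *Mbnl3* had ATAC-seq and H3K4me3 without H3K27ac, and *Rbfox1* had only an ATAC-seq peak in replicate 1 (6.81).

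**Figure D5:**
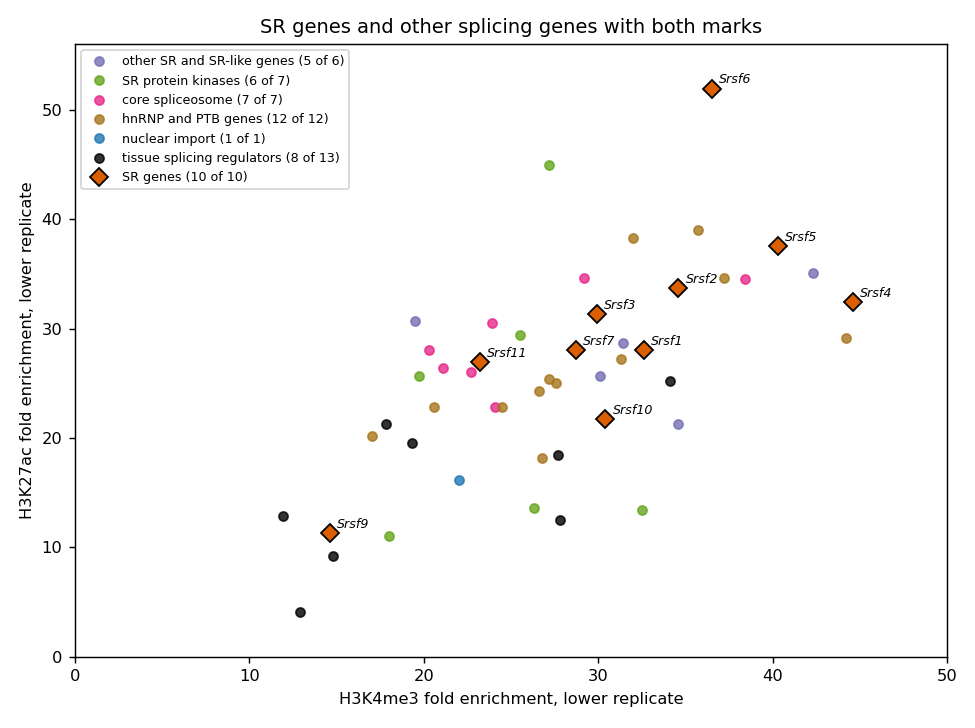
H3K27ac against H3K4me3 fold enrichment at the strongest promoter peak, each the lower of the 2 replicates, for the 10 SR genes (diamonds) and the other splicing genes that carry both marks in both replicates (circles, coloured by list). The SR genes lie among the hnRNP and spliceosome genes, *Srsf6* (51.9 for H3K27ac) is above all others and *Srsf9* is near the lower left.

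The label of the cells was checked with marker promoters. Of 11 MuSC markers, among them *Pax7* and *Myf5*, 11 had ATAC-seq and H3K4me3 peaks, 10 had H3K27ac (all but *Calcr*) and 0 had H3K27me3 in both replicates. Of 26 markers of other cell types, 19 had ATAC-seq, 11 H3K4me3, 6 H3K27ac and 3 H3K27me3. Over all protein-coding genes the shares were 67.8%, 60.8%, 46.6% and 4.81%. The ATAC-seq share of the 26 was thus not below that of all genes, and accessibility does not set these markers apart. H3K27ac was listed at 1 of 7 fibro-adipogenic, 1 of 6 endothelial, 1 of 6 blood and 3 of 7 myofibre markers. SR genes are used in all of these cell types, and the share of other cells in their peaks was not tested.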

How the data were processed

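MuSCs were profiled by ATAC-seq and ChIP-seq with 2 replicates per feature. The series holds 272 samples, and only these 8 were used here. Per the study's methods and the submitters' notes, the authors trimmed reads (Trim Galore 0.6.10), aligned them to mm10 (BWA 0.7.17-r1188), removed alignments of mapping quality under 30, duplicates and blacklisted regions, corrected the Tn5 offset (deepTools 3.5.5) and called peaks per library (MACS2 2.2.6). In the deposited lists the authors' fold enrichment, −log10 p, −log10 q and score were used as given. H3K27me3 peaks were called by p and the others by q. The lists hold no read counts, so depth is unknown and no interval is given.

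The 332926 peaks on 21 chromosomes were overlapped (from 1 bp) with GENCODE M21, 55413 genes, using Python 3.11.15 and pandas 2.3.3. Overlaps were checked on 2000 simulated windows against a full search, and 0 differed. A promoter was 3 kb either side of any annotated start site, and a gene was marked with a peak in both replicates. The strongest promoter peak gave the fold, and ranks use the lower replicate. Promoter sequences are from RefSeq (GRCm38.p6), where all 10 members matched.

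The members and gene lists were chosen with earlier results of these data known. All members were named, with genes starting within 1 kb of them, the 5 promoters most like *Srsf6*, and the other splicing genes that lack an active feature, carry H3K27me3, or have the highest or lowest H3K27ac. *Elk4*, *Epc1* and *Rbm39* are the ranks beside *Srsf6*, and *Gm13830* is named because a peak upstream of *Srsf9* overlaps it. The example genes of the lists (*U2af1*, *U2af2*, *Sf3b1*, *Tnpo3*, *Pax7*, *Myf5* and *Calcr*) were chosen after their values were seen. Alternatives were a 1-kb window, protein-coding starts, −log10 q of at least 5, summit overlap and leaving out a replicate.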

Additional observations from a re-analysis of the deposited data

How the results depend on the processing

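No paired analysis was possible because no result comes from a test and no groups are compared. A count or rank was taken as unmoved within 1.5 times its value, and a median fold within 1 SD of the replicates, which leaving out 1 of 2 replicates cannot exceed. By these limits 84 of 89 alternatives did not move the value and 5 did. Some of the 84 could not have moved. A member with a peak in both replicates keeps 1 when the other is left out. The strongest promoter peaks of the members all had −log10 q of at least 28.8, above the stricter limit of 5. The rank of *Srsf6* by H3K27ac, 3 by the lower replicate, was 12 by the mean of both, 5 by −log10 q, and 3 to 36 with a replicate left out. The 40.5 ATAC-seq peaks (mean of replicates) in the members and within 10 kb fell to 22 in the genes alone, a smaller region by construction, where H3K4me3 peaks fell from 18 to 12 and H3K27ac peaks from 18 to 12.5. With −log10 q of at least 5, 1 of the other splicing genes, in place of 2, carried H3K27me3. The median folds of the members ran from 12.8 to 13.8 for ATAC-seq, 31.5 to 44.4 for H3K4me3 and 29.6 to 35 for H3K27ac with a replicate left out. The counts of members above the 90th percentile, added after seeing the data, were then 0 for ATAC-seq, 7 for H3K4me3 (5 with both replicates) and 8 to 9 for H3K27ac. Depth is unknown, peaks under the authors' thresholds are not listed, and folds are not comparable between features.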
